A study of Mus musculus with 5 samples.

Results

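The lysosome genes described here are 31 mouse genes chosen by symbol for what their products do, out of the 38918 features of the normalised table. They are 9 proteases, 6 glycosidases, 6 genes of lipid handling, 6 membrane proteins, 3 subunits of the proton pump and the transcription factor gene Tfeb. The rule names symbols and uses no measured value, although the genes were chosen with earlier results of these data known. All 31 genes were found in the table and passed the filter of a mean of at least 10.

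RNA was measured in 5 libraries of mammary tumours of 20-week-old offspring of an SV40 transgenic line on the FVB strain. In the control group (2 libraries) dams received the control diet. In the group called maternal BSp (3 libraries) their feed held 26% broccoli sprouts, abbreviated BSp, from conception until the pups were weaned. All offspring of both groups carried the transgene by the study's description and were not treated themselves. The promoter that drives the transgene is not given in the labels, nor is it stated that each library is a separate animal, so the p-values below reflect library-to-library spread, which may be technical. The question of the comparison is whether transcript levels in the tumours differ with the diet of the mother. These are bulk tumours, so fewer cells of a type and less RNA per cell cannot be told apart.

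Lysosomes are acidic, membrane-bound compartments in which proteins, sugars, lipids and nucleic acids are broken down. Most of the hydrolases reach them by the mannose 6-phosphate sorting route, and a V-type ATPase pumps protons inward to give the acid pH at which cathepsins work. Many of the genes are transcribed together under the factors TFEB and TFE3, which bind a short palindrome-containing motif near the start sites and which the kinase complex mTORC1 holds in the cytoplasm when nutrients are plentiful. In the mammary gland, lysosomal proteases are known for tissue remodelling during involution, and tumour macrophages are rich in cathepsins.

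Promoter windows are shown because the choice of genes used no sequence. Since many lysosome genes are known to be under those factors, an excess of the motif was foreseeable and is not an independent result. RefSeq windows from 250 bases before to 50 bases after the start (GRCm38.p6) were matched for 26 of the 31 genes, in 30 windows; Asah1, Atp6v1h, Ctsb, Ctsh and Npc1 were not used here. The palindrome CACGTG, searched on both strands, was found in 9 of the 30 windows (30%), against 7.15% of 32851 windows of all genes. The longer TCACGTG, which contains it, was in 8 windows (26.67%, against 3.765% of all), and GTCACGTG, which contains both, was in 6 (20%, against 2.247% of all). The stretches below are those of the 6 genes with GTCACGTG on either strand, read 5′ to 3′ on the gene's strand, with CACGTG in capitals.
Lamp1, plus strand, chr8:13159088-13159163: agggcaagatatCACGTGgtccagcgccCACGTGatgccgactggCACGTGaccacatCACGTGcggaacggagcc
Mcoln1, plus strand, chr8:3500436-3500491: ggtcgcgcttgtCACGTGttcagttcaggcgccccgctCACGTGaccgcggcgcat
Ctsa, plus strand, chr2:164833749-164833795: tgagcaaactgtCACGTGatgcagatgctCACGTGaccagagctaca
Ctsd, minus strand, chr7:142387908-142387937: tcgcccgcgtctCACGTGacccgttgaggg
Glb1, plus strand, chr9:114401018-114401047: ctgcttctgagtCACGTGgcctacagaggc
Atp6v0d1, minus strand, chr8:105566050-105566079: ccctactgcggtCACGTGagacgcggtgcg

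Lamp1 held 4 copies, Mcoln1 and Ctsa 2 each, and Ctsd, Glb1 and Atp6v0d1 1 each. The other genes with CACGTG were Atp6v1a, Ctsl and Gaa. Of the 9 genes with the palindrome 4 were higher in maternal BSp, with a median log2 fold change of -0.16. Of the 17 matched genes without it 9 were higher, with a median of 0.10. A match describes letters in this window and is not evidence of binding.

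Library depth limits what follows. The table is scaled so that every column sums to 1106813, and whole reads could be recovered from it, giving 1106813 reads for control replicate 1 and 3909583 for control replicate 2. The maternal BSp replicates 1, 2 and 3 held 8459029, 61663199 and 13796272 reads. Both controls are shallower than every maternal BSp library, so depth and diet cannot be told apart by design. With reads thinned to the shallowest library 16 lysosome genes were higher and 15 lower, with the signs of Ctsz and Npc1 exchanged, and 0 were called. Replicates are named here by the number in their description. In control replicate 1, the shallowest library, 1 read has the value 1, and 14 of the lysosome genes rested on under 100 reads, with Lipa the fewest at 12. In control replicate 2, 2 genes did, and in the maternal BSp libraries 0. The lysosome genes took 0.911% of reads in control replicate 1 (Wilson 95% interval 0.893 to 0.929) and 0.791% in control replicate 2 (0.782 to 0.80). They took 0.807%, 1.04% and 0.685% in maternal BSp replicates 1, 2 and 3, with intervals of 0.801 to 0.813, 1.036 to 1.041 and 0.681 to 0.689, all for counting error only. Maternal BSp replicates 2 and 3 are therefore on either side of both controls in this share. Markers of other tissues also varied between libraries: the summed value of salivary gland genes was 697 and 0.283 under the control diet and 2448, 8.97 and 12.4 in maternal BSp, and that of erythroid genes 494 and 148 against 131, 0.682 and 1204. Luminal epithelial genes, markers of the labelled mammary tissue, had summed values between 5350 and 7090 in all 5 libraries. Of the 10 listed, 4 were higher and 6 lower in maternal BSp. Epcam ran from 1756 to 2393, Cdh1 from 579 to 951 and Krt8 from 422 to 1048.

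No lysosome gene passed the test between the groups, limma on log2(value + 1) with Benjamini-Hochberg adjustment over all 9870 genes tested. The adjusted p was between 0.461 (Gusb) and 0.999 (Lamp1), and the same threshold called 0.0% of all genes tested. At an unadjusted p under 0.05, 0 of the 31 were higher and 0 lower, where 8.01% and 3.14% of all tested genes were. Log2 fold changes (maternal BSp minus control) ran from -0.95 to 0.72 with standard errors of 0.34 to 0.72, and the 95% interval of every one of the 31 included 0. In all, 16 were higher and 15 lower in maternal BSp, against 63.2% higher among all tested genes, and the median log2 fold change was 0.0027 against 0.21 over all genes. With median-of-ratios and upper quartile scaling the median of all genes was 0.034 and 0.080 and 11 lysosome genes were higher, since Ctsa, Gaa, Grn, Lamp1 and Lamp2 then took a negative sign. The median of the set minus that of all genes was -0.21 under each of the 3 scalings. Groups did not overlap for 2 genes, Tpp1 (higher) and Neu1 (lower), where 23.8% and 9.21% of all tested genes were apart in those directions. Under median-of-ratios scaling 7 were apart and lower (14.6% of all tested genes), and under upper quartile scaling 6 (13.2%).

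Count tests on the recovered reads were run beside limma. DESeq2 called 0 of them and 1.01% of all genes, and 5 lysosome genes were lower at an unadjusted p under 0.05 (Ctsd, Hexa, Gusb, Neu1 and Npc2), where 6.22% of all genes were. The edgeR quasi-likelihood test called 0, with Hexa, Gusb and Neu1 lower at an unadjusted p under 0.05, where 5.01% of all genes were. Limma with array weights on the normalised values, which lets libraries count unequally, called Hexa and Gusb, and 7.08% of all genes.

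**Figure D1:**
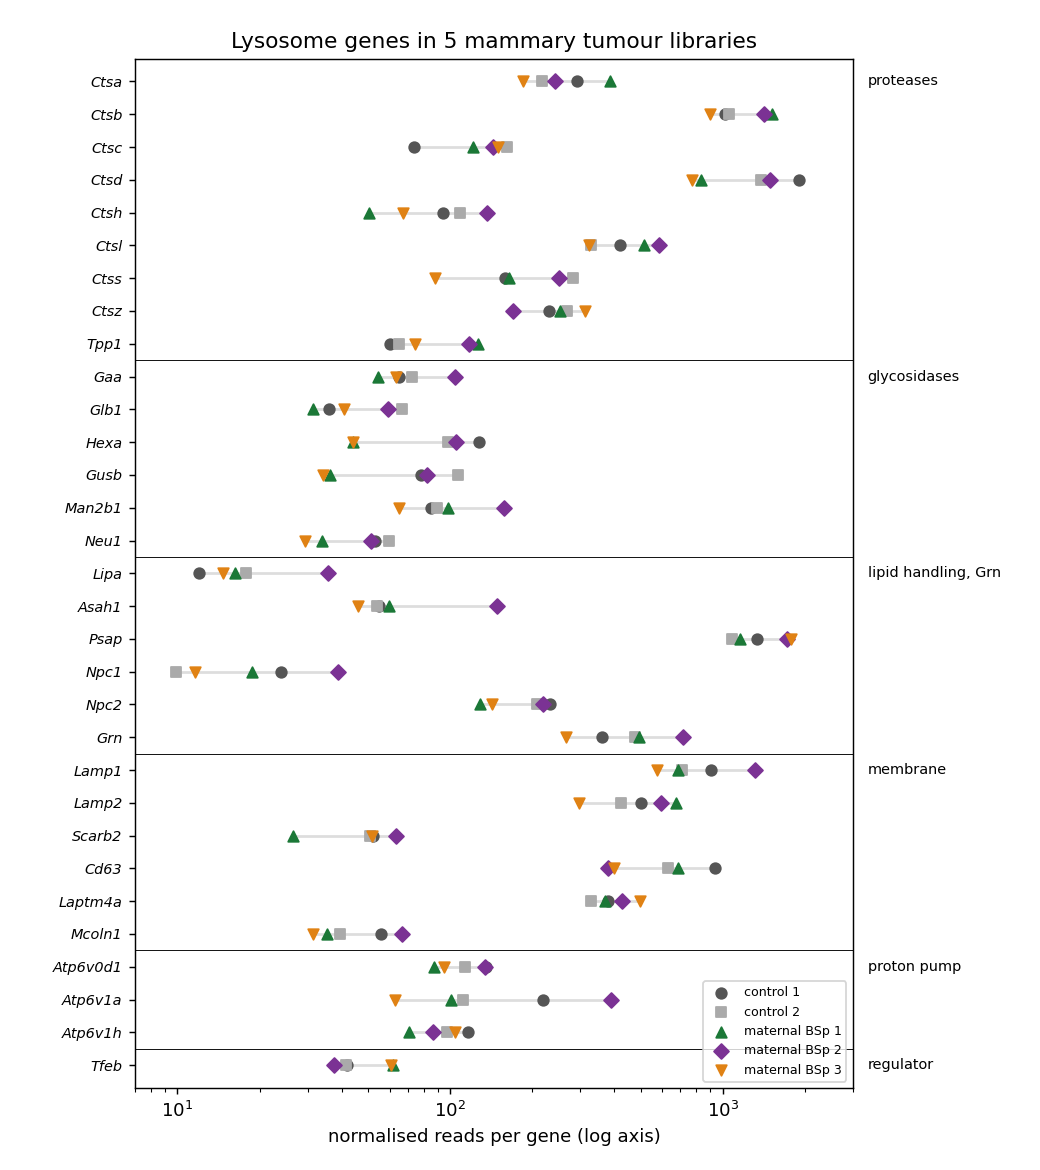
Normalised value (log axis) of each lysosome gene on the x axis, with 1 symbol for each of the 5 libraries and the genes ordered by role. The groups overlap for 29 of the 31 genes, and the maternal BSp symbols span a wider range than the controls for 30 of them.

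Per kilobase of the longest coding transcript, and averaged over the 5 libraries, Ctsd was the most abundant at 601, followed by Cd63 at 547, Psap at 534, Lamp1 at 376 and Ctsb at 248.7. The order differed between the groups: the control means were 774 for Ctsd, 707 for Cd63 and 456 for Psap, and the maternal BSp means 585 for Psap, 486 for Ctsd and 440.3 for Cd63. The lowest were Lipa at 6.49 and Npc1 at 3.94. The order depends on the transcript chosen, 6168 bases for Ctsl and 1109 for Cd63, and which transcripts were present was not measured. Without division by length the highest means were 1418 for Psap, 1278 for Ctsd, 1180 for Ctsb, 838 for Lamp1 and 607 for Cd63. The 5 highest encode cathepsins, membrane proteins and an activator of lipid breakdown. Spread differed as well: within a gene the highest library was 2.18 times the lowest at the median, and 6.17 times for Atp6v1a, the catalytic subunit of the proton pump. The range of log2 values was wider among the maternal BSp libraries than among the controls for 30 of the 31 genes, and for 83.5% of all tested genes; 3 libraries span a wider range than 2 by number alone.

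Cathepsins are the main lysosomal proteases. Ctsd (chromosome 7, 142375911 to 142388038 in GENCODE M21 on GRCm38), the aspartic protease cathepsin D, had values of 1912 and 1379 under the control diet and 833, 1496 and 769.6 in maternal BSp. Maternal BSp replicate 2 lay between the controls and the other libraries of its group below both. Its mean was 1646 ± 377 (SD, n = 2) against 1033 ± 402 (SD, n = 3), a log2 fold change of -0.72 ± 0.44 (SE) with an interval of -1.73 to 0.29. Ctsb, the cysteine protease cathepsin B, measured 1022 and 1052 against 1515, 1413 and 896, with the groups overlapping through maternal BSp replicate 3 and a log2 fold change of 0.26 ± 0.40 (SE). Ctsl, cathepsin L, had 420 and 329 under the control diet and 515, 584 and 322 in maternal BSp (0.30 ± 0.39), so again replicate 3 was the lowest of its group.

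The other cathepsins and proteases did not separate the groups either. Ctss, cathepsin S of antigen-presenting cells, had 159 and 282 under the control diet and 165, 251 and 87.9 in maternal BSp (log2 fold change -0.46 ± 0.50, SE). Ctsh, an aminopeptidase, had 94.0 and 109 against 50.2, 137 and 67.1 (-0.38 ± 0.46). In both genes maternal BSp replicate 3 was below both controls and replicate 2 was not. Ctsa, Ctsc and Ctsz, whose products are a carboxypeptidase that protects other lysosomal enzymes, a dipeptidyl peptidase and a further carboxypeptidase, had log2 fold changes of 0.034, 0.33 and -0.06. Their groups overlapped at 184 to 385, 74.0 to 162 and 170.1 to 314. The exception was Tpp1 (chromosome 7, 105744811 to 105752235), a tripeptidyl peptidase, at 60.0 and 64.8 under the control diet and 126, 118 and 74.5 in maternal BSp. All 3 maternal BSp libraries were above both controls, with a log2 fold change of 0.72 ± 0.36 (SE), interval -0.11 to 1.55, and a limma adjusted p of 0.473. Of all tested genes 23.8% were apart in that direction. The Tpp1 fold change was 0.54 and 0.59 with median-of-ratios and upper quartile scaling, 0.54 with DESeq2 and 0.57 with edgeR. It was 0.50 with a trend with transcript length and GC content removed, and 0.91 with array weights. Of the 9 proteases 5 were higher and 4 lower, with a median log2 fold change of 0.034. The sign of that median was negative without maternal BSp replicate 1 (-0.078) and without control replicate 1 (-0.17).

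Glycosidases strip sugars from glycoproteins and glycolipids. Gusb (chromosome 5, 129989011 to 130003049), beta-glucuronidase, had 78.0 and 107 under the control diet and 36.2, 82.6 and 34.2 in maternal BSp. Hexa (chromosome 9, 59539540 to 59565109), the alpha subunit of beta-hexosaminidase, had 128 and 98 against 44.1, 105 and 44.0. In both genes maternal BSp replicates 1 and 3 lay under both controls, while replicate 2 lay between them. The log2 fold change of Gusb was -0.95 ± 0.46 (SE, interval -2.0 to 0.099, limma adjusted p 0.461). That of Hexa was -0.91 ± 0.46 (interval -1.96 to 0.14, limma adjusted p 0.473). With a trend with transcript length and GC content removed they were -0.91 for Gusb and -0.69 for Hexa. Neu1 (chromosome 17, 34931253 to 34935953), a sialidase, had 53.0 and 59.7 against 34, 51.2 and 29.4, which puts every maternal BSp library below both controls, replicate 2 by a small margin. Its log2 fold change was -0.58 ± 0.37 (SE, interval -1.44 to 0.27), with a limma adjusted p of 0.552.

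The remaining glycosidases, Gaa (acid alpha-glucosidase), Glb1 (beta-galactosidase) and Man2b1 (alpha-mannosidase), had log2 fold changes of 0.05, -0.21 and 0.20. Their values ran from 54.6 to 104, 31.4 to 66.8 and 64.9 to 158, with maternal BSp replicate 2 highest for Gaa and Man2b1. Of the 6 glycosidases 2 were higher and 4 lower, with a median of -0.40. Without maternal BSp replicate 2 all 6 were lower with a median of -0.63, and without control replicate 2 3 were higher with a median of -0.19. It was -0.66 with control replicate 1 left out and -0.26 with maternal BSp replicate 1 left out. Their summed values were 445 and 494 under the control diet and 298, 561 and 277 in maternal BSp, so the highest and the lowest sums were both in maternal BSp libraries.

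Lipid handling genes encode enzymes and carriers that break down or export lipids, and Grn, which is cleaved into the granulins, is listed with them. Psap, the precursor of the saposins that activate sphingolipid hydrolases, had 1340 and 1084 under the control diet and 1156, 1724 and 1784 in maternal BSp (log2 fold change 0.34 ± 0.40, SE). Npc2, a carrier of cholesterol inside the lysosome, had 232 and 208 against 128, 219.8 and 143 (-0.46 ± 0.36). Psap was highest in maternal BSp replicate 3, in which Npc2 was below both controls, so the libraries did not keep the same order from gene to gene. Asah1, acid ceramidase, had 55.0 and 53.8 under the control diet and 59.9, 148 and 46.0 in maternal BSp, so its log2 fold change of 0.44 ± 0.50 rests on replicate 2 (without that library it was -0.049). Lipa, acid lipase, and Npc1, the membrane partner of Npc2, were at 12 and 17.8 against 16.2, 35.7 and 14.7, and at 24 and 9.91 against 18.7, 38.8 and 11.6. Both had the highest value in maternal BSp replicate 2 and low read numbers in the controls. Grn had 361 and 478 against 492, 717 and 265 (0.13 ± 0.47). Of the 6 genes 5 were higher and 1 lower, with a median of 0.36. Without maternal BSp replicate 2 this was 2 higher and 4 lower, with a median of -0.060, and without replicate 3 the median was 0.60.

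Lysosomal membrane proteins line the compartment or move ions through it. Lamp1 (chromosome 8, 13159161 to 13175338), a major glycoprotein of the membrane, had 909 and 707 under the control diet and 683, 1316 and 576 in maternal BSp. Its log2 fold change was 0.0027 ± 0.45 (SE, interval -1.04 to 1.04), the smallest of the set in size, over libraries that differed 2.29-fold. Its relative Lamp2, which takes part in chaperone-mediated autophagy, had 500 and 424 against 676, 592 and 297 (0.10 ± 0.44). Cd63, a tetraspanin of late endosomes and exosomes, had 936 and 632 against 688, 379 and 398. Its maternal BSp libraries were not all below the controls, since replicate 1 lay between them, and the log2 fold change was -0.71 ± 0.42 (SE, interval -1.66 to 0.25), or -0.29 with a trend with transcript length and GC content removed. Scarb2, the receptor that sorts glucocerebrosidase, Laptm4a, a transmembrane protein of late endosomes, and Mcoln1, a calcium channel, had log2 fold changes of -0.21, 0.28 and -0.16. Their values ran from 26.6 to 63.2, 328 to 497 and 31.5 to 66.5. Of the 6 membrane genes 3 were higher and 3 lower, with a median of -0.077. This rests on single libraries: without maternal BSp replicate 2 it was 1 higher and 5 lower (median -0.41), and without replicate 3 it was 4 higher and 2 lower (0.11). It was 0.14 with control replicate 1 left out, -0.20 without control replicate 2 (1 higher and 5 lower) and 0.043 without maternal BSp replicate 1.

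The V-type ATPase acidifies the lysosome. Atp6v1a had 219 and 112 under the control diet and 101, 388 and 62.8 in maternal BSp, with maternal BSp replicate 2 above and replicates 1 and 3 below both controls. The log2 fold change was -0.21 with the largest standard error of the set, 0.72 (interval -1.86 to 1.45). Atp6v0d1 and Atp6v1h, further subunits of the same pump, had log2 fold changes of -0.25 ± 0.35 and -0.30 ± 0.34, with values of 87.4 to 135 and 70.5 to 116. All 3 pump genes had negative fold changes, with a median of -0.25, and each interval included 0. That median was -0.43 without maternal BSp replicate 2 or without control replicate 2, -0.13 without maternal BSp replicate 1 or control replicate 1, and -0.19 without maternal BSp replicate 3. Tfeb (chromosome 17, 47737030 to 47792419) encodes the transcription factor named above and had 42.0 and 41.6 under the control diet and 61.9, 37.5 and 60.9 in maternal BSp. Replicate 2 was the only maternal BSp library below both controls here, and the log2 fold change was 0.31 ± 0.37 (SE, interval -0.53 to 1.15). It was 0.54 without replicate 2, 0.19 without replicate 1 and 0.20 without replicate 3, and 0.63 with the length and GC trend removed.

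**Figure D2:**
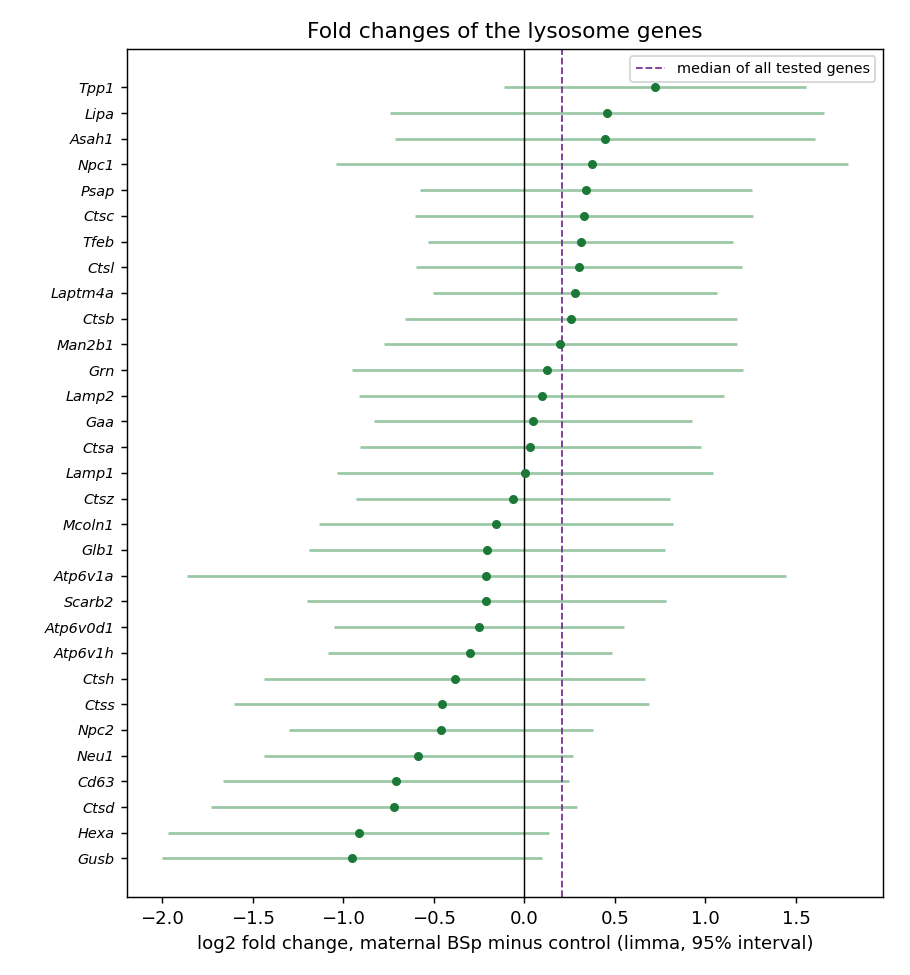
Log2 fold change (maternal BSp minus control) of each lysosome gene (point) with its 95% interval (bar), sorted by size, with the median of all tested genes as a dashed line at 0.21. Every interval includes 0, from Gusb at -0.95 to Tpp1 at 0.72.

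The maternal BSp libraries differed among themselves. Lysosome genes had their highest value in maternal BSp replicate 2 in 12 of 31 cases (38.7%, against 45.8% of all tested genes) and their lowest in maternal BSp replicate 3 in 15 cases (48.4%, against 23.6%). The median deviation of the set from each gene's mean over libraries was 0.062 and 0.025 on the log2 scale under the control diet and -0.14, 0.42 and -0.39 in maternal BSp replicates 1, 2 and 3. Over all tested genes it was -0.12, -0.092, -0.0058, 0.35 and -0.049 in the same order. In maternal BSp replicate 2 the median over all tested genes was high as well, although every column sums to the same total. In replicate 3 the median of the lysosome genes lay below that of all tested genes. Genes with CACGTG and those without had median deviations of -0.47 and -0.34 in replicate 3. In maternal BSp replicates 1 and 2 these were -0.35 and -0.084, and 0.47 and 0.31. In control replicates 1 and 2 they were 0.19 and -0.060, and -0.16 and 0.13, so the controls differed in opposite directions.

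**Figure D3:**
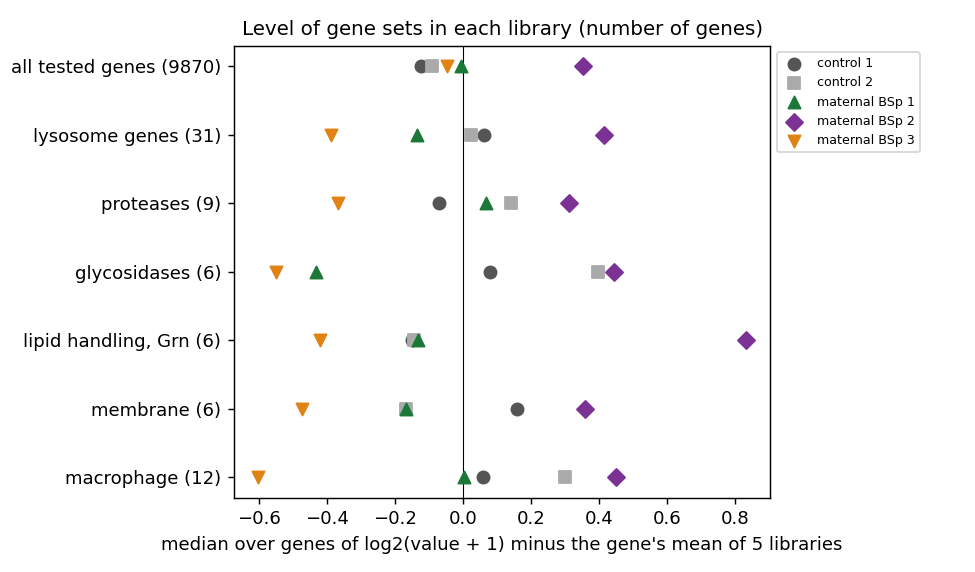
Median log2 deviation of the lysosome genes and of all tested genes from each gene's mean over the 5 libraries (x axis), with 1 symbol per library, beside the same for 4 roles and for macrophage markers. The lysosome genes are at -0.39 in maternal BSp replicate 3 and 0.42 in replicate 2, where all genes are at -0.049 and 0.35.

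With maternal BSp replicate 2 left out, groups were apart and lower for 11 genes (Ctsd, Ctsh, Gaa, Hexa, Gusb, Neu1, Npc2, Lamp1, Mcoln1, Atp6v0d1 and Atp6v1a), where 21.3% of all tested genes were, and apart and higher for Tpp1 and Tfeb (28.4% of all tested genes). At an unadjusted p under 0.05, 5 were lower (6.74% of all tested genes), namely Ctsd at -1.02, Ctsh at -0.79, Hexa at -1.33, Gusb at -1.35 and Neu1 at -0.81. Their limma adjusted p was between 0.207 and 0.315, so no gene passed the threshold in this comparison of 2 libraries with 2. In this comparison 10 of the 31 were higher. The median of the set was then -0.22 and that of all genes 0.079. Leaving out maternal BSp replicate 3 instead went the other way. Groups were then apart and higher for 7 genes (Ctsb, Ctsl, Tpp1, Man2b1, Asah1, Grn and Lamp2), where 37.2% of all tested genes were, and apart and lower for Neu1 and Atp6v1h (14.1% of all). In that comparison 18 of the 31 were higher, with a median of 0.17 against 0.30 for all genes. Tpp1 alone was higher at an unadjusted p under 0.05 (11.9% of all genes), with a log2 fold change of 0.96 and a limma adjusted p of 0.251.

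Array weights gave replicate 2 the weight 0.34, replicate 3 0.46 and replicate 1 2.97, against 1.48 for each control, and called Hexa at -1.21 (adjusted p 0.0457) and Gusb at -1.22 (adjusted p 0.0461). Maternal BSp replicate 1 and the controls carried most of the weight in those 2 calls.

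**Figure D4:**
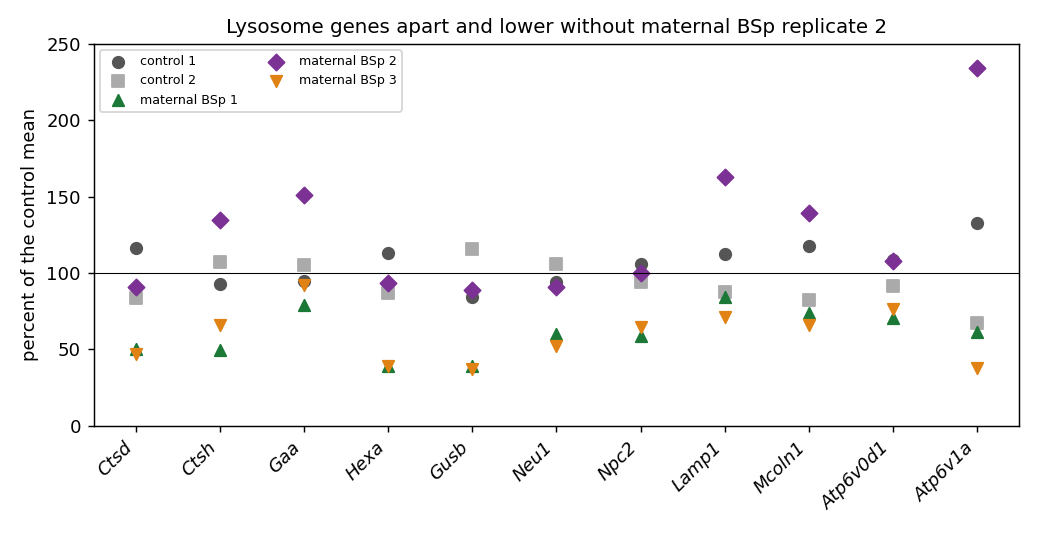
Values in each of the 5 libraries, as percent of the mean of the controls (y axis), of the 11 genes that were apart and lower once maternal BSp replicate 2 was left out. For Hexa, maternal BSp replicates 1, 2 and 3 are at 39.0, 93.3 and 39.0 percent, and for Atp6v1a at 61.2, 234 and 38.0 percent.

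C1qa and C1qb, subunits of complement C1q made by tissue macrophages, had 343 and 365 against 89.4, 264 and 95.9, and 196 and 201.0 against 76.2, 177 and 63.5. Their log2 fold changes were -1.42 and -1.05, with limma adjusted p of 0.407 and 0.452, and -0.79 and -0.48 with the length and GC trend removed. Maternal BSp replicates 1 and 3 were the lowest libraries in both, as they were for Hexa and Gusb. With replicate 2 left out, 21.3% of all tested genes were apart and lower. Over the 12 tested macrophage markers of 16 listed, 5 were higher and 7 lower with a median of -0.33, and the summed value of the list was 1210 and 1307 under the control diet and 822, 1646 and 729.7 in maternal BSp. Marco was the only listed macrophage marker in the table at 0 in any library. Lyz2, lysozyme, ran from 152 to 629 with the highest value in maternal BSp replicate 2. Its log2 fold change was 0.51, or -0.064 without that library. Dendritic cell markers summed to 341 and 1393 against 543, 115 and 182. Fibroblast markers summed to 1762 and 767 against 1300.2, 2775 and 398, and basal epithelial markers to 3587 and 2229 against 1443, 1694 and 266. The part of these markers in the result was not tested.

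Other genes of the pathway, from lists of known function, gave 0 calls in every list. Among 30 tested of 38 further hydrolases and cofactors, 16 were higher and 14 lower (median 0.03). Among 25 of 31 further membrane and transport proteins, 19 were higher and 6 lower (median 0.51), and among 16 of 18 further pump subunits 7 were higher and 9 lower (-0.12). The mannose 6-phosphate sorting list had 9 higher and 5 lower (0.24), the TFEB family with the mTORC1 recruitment genes 18 and 4 (0.22), autophagy 18 and 9 (0.37) and the cathepsin inhibitors 1 and 3 (-0.57). These medians stand beside 0.21 for all genes.

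The genes of each list with the smallest p, none of which passed the threshold, were the following. Atp6v1f and Atp6v0b, pump subunits, had 439 and 471 against 234, 196 and 173, and 427 and 469 against 225, 211 and 246, so the groups were apart. Their log2 fold changes of -1.19 and -0.98 became -0.50 and -0.38 once a trend with transcript length and GC content was removed. Zkscan3, which in human cells is reported to repress autophagy and lysosome genes, had 14 and 15.3 against 29.8, 46.3 and 42.4 (1.35, or 1.09 with that trend removed). Nbr1, an autophagy receptor, had 49.0 and 53.5 against 113, 139.8 and 115 (1.24, or 1.01). Lamtor4, a subunit of the complex that tethers mTORC1 to the lysosome, had 224 and 177 against 96.2, 53.0 and 93.1 (-1.34, or -0.67). The limma adjusted p was 0.407 for each of these 5 genes. It was also 0.407 for Clta (log2 fold change -1.37, or -1.07 with the trend removed) and Ap1s1 (-1.24, or -0.80) of the coats that carry sorted enzymes. Map1lc3a (-1.27, or -0.54), an LC3 protein of autophagosomes, had the same limma adjusted p.

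Among further hydrolases, Dnase2a, an acid nuclease, had 285 and 116 against 102, 82.8 and 40.6 (-1.36, limma adjusted p 0.426). With the length and GC trend removed it was -1.14. Ctsk, a collagen-cleaving cathepsin, had 4 and 3.40 against 53.0, 24.3 and 4.33. Its groups were apart by a small margin at replicate 3 and the controls rest on few reads. The log2 fold change of Ctsk was 2.05, or 2.28 with the trend removed. In the transport list the calcium channel gene Tpcn1 had 0.82 (0.78 with the trend removed) and Tmem192, a lysosomal membrane protein, -0.90 (-0.42). Among the inhibitors Cstb, cystatin B, had 353 and 258 against 104, 164 and 209 (-0.98, or -0.27 with the trend removed). Serpinb6a had -0.89, or -0.65 with the trend removed. The adjusted p of these genes was 0.426 to 0.565.

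The authors' deposited table lists 2447 genes with their own p-values. Its first block has 1739 genes, beside 38918 features in the normalised table and 9870 genes tested here. The largest authors' p in that block is 0.049965, and it holds 0 of the 31 lysosome genes. The second block of columns has 1642 genes, beside the same 38918 features, and holds 3 of the 31. There the authors' deposited p for control against BSp was 0.309 for Ctsl, 0.361 for Laptm4a and 0.0714 for Tpp1. All 3 are above 0.05, so a place in this block does not mean that a gene was called between control and BSp. These p-values are unadjusted.

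Exons of 11 of the 31 genes overlap another annotated gene, in 9 cases on the opposite strand, among them Ctsb, Hexa, Lamp1 and Grn. The libraries were made with a strand-specific kit, but whether the counting used strand is not given in the sources used here, so their values may include reads of the neighbour. Ctsd shares 808 of its 2351 exon bases with Gm49369 on its own strand, and Glb1 shares 165 with Tmppe. Ctsl also overlaps Gm49230 on its own strand. Counting by strand would not separate these. Cd63 also has a processed copy, Cd63-ps, that could share its reads.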

How the data were processed

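RNA-seq of 5 mammary tumour libraries was deposited as a normalised table with 1 column per library, a coverage signal of scaled reads per gene, per the file headers. The submitters' processing notes name STAR, cutadapt, Trim Galore, FastQC and DESeq, and the builds mm10 and GRCm38. Versions, the counter, the gene models and any use of strand were not stated in the labels or headers used here. RNA with an integrity number of 7.0 or above entered a strand-specific kit, per the labels. The authors' deposited second table gives p-values per gene, used only as quoted. Every column sums to the same total. Values above 0 were whole multiples of 1 read within 0.1 read for 100% of them, so reads were recovered for the count alternatives.

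Groups and replicate numbers come from the description field. Genes with a mean of at least 10 (9870) were tested on log2(value + 1), pseudocount 1, with limma 3.58.1 (trend) in R 4.3.3 and Benjamini-Hochberg adjustment over all of them at 0.05, since the table holds normalised values. Fold changes on this scale understate low genes. Alternatives were edgeR 4.0.16, DESeq2 1.42.0, other filters, pseudocounts and scalings, array weights, thinning, a length and GC trend (94.7% of tested genes had both values), a replicate block and leaving out each library. The fits were also run on simulated data with the same spread for every gene and no outlying library. The measured data differ in this, so those runs do not bear on the results above. Same-numbered libraries were not taken as pairs, since the labels give no shared litter or day. Deviations from the group means of the 2 same-numbered pairs correlated at 0.094 and -0.092 (Pearson, across genes). Those paired by the number in the title correlated at 0.092 and 0.16. With 2 controls, the deviations of 1 are those of the other with the sign changed, so these correlations cannot decide on pairing. Members and lists were chosen with earlier results of these data known. All 31 lysosome genes are named; other pathway genes are the 2 per list that had the smallest unadjusted p, and markers were named from the 3 most abundant per cell type. Intervals of shares are Wilson 95% intervals.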

Additional observations from a re-analysis of the deposited data

How the results depend on the processing

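There were 19 alternatives per gene, or 18 for the 7 genes that a filter mean of 50 leaves out. Across them 15 of the 31 lysosome genes kept their direction (9 lower, 6 higher) and 16 reversed at least once. Not all alternatives could reverse a sign, since another filter leaves each fold change as it was. The replicate block gives the same fold changes as leaving out maternal BSp replicate 3. A block by the number in the title gives those of leaving out maternal BSp replicate 1. The same count was not made over all tested genes. Genes called over the whole table numbered 23 with a replicate block, 699 with array weights, 100 with DESeq2 and 0 to 1 when a library was left out; among lysosome genes array weights called 2 and no other alternative called any. Lysosome genes higher in maternal BSp numbered 10 to 18 when a library was left out. Genes whose groups were apart numbered 1 at a filter mean of 50 (24 genes tested; 34.1% of all genes were apart), 8 with median-of-ratios scaling (31.5% of all), 7 with upper quartile scaling (32.1%) and 5 to 13 when a library was left out (42.1% to 51.3%). The cause was not tested. The replicate block leaves maternal BSp replicate 3 alone in its block.

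Reversed log2 fold changes were, with median-of-ratios scaling, -0.15 (Ctsa), -0.13 (Gaa), -0.054 (Grn), -0.18 (Lamp1) and -0.087 (Lamp2). In the same order they were -0.10, -0.083, -0.0064, -0.13 and -0.039 with upper quartile scaling, -0.088, -0.12, -0.0058, -0.15 and -0.025 with edgeR, and -0.11, -0.15, -0.035, -0.18 and -0.050 with DESeq2. Removing the length and GC trend gave -0.026 (Ctsc), -0.013 (Ctsl), 0.36 (Ctsz), -0.38 (Lamp2), 0.049 (Mcoln1) and 0.075 (Atp6v0d1). Array weights gave 0.016 (Ctsz), -0.22 (Gaa) and -0.18 (Lamp1), and thinned reads 0.016 (Ctsz) and -0.074 (Npc1). The replicate block gave 0.046 (Mcoln1) and 0.34 (Atp6v1a). A block by the number in the title, added after seeing the data, gave -0.25 (Ctsa), 0.0036 (Glb1), -0.13 (Lamp2) and 0.15 (Scarb2). Leaving out each library gave -0.25 to 0.28 for Ctsa, -0.23 to 0.89 for Ctsc, -0.26 to 0.18 for Ctsz, -0.22 to 0.24 for Gaa, -0.64 to 0.23 for Glb1, -0.13 to 0.51 for Man2b1, -0.049 to 0.78 for Asah1, -0.22 to 0.97 for Npc1, -0.20 to 0.52 for Grn, -0.35 to 0.24 for Lamp1, -0.13 to 0.46 for Lamp2, -0.46 to 0.15 for Scarb2, -0.48 to 0.093 for Mcoln1 and -0.96 to 0.34 for Atp6v1a. Depth limits Lipa and Npc1 most, at 12 and 24 reads in control replicate 1.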
